A study of Mus musculus with 4 samples.

Results

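A set of 10 genes that mark fibroblasts and mural cells was read in bulk RNA of mouse hearts as a sign of cell composition. They were taken by name from the deposited expression table, in which each name matched 1 of 55401 gene rows. The 5 fibroblast genes were *Pdgfra*, *Tcf21*, *Dcn*, *Lum* and *Postn*, and the 5 mural genes were *Pdgfrb*, *Rgs5*, *Acta2*, *Myh11* and *Tagln*. The study compared hearts of 8-week-old wild-type mice with hearts of *Ctcf* heterozygous mice of the same age, with 2 libraries of each genotype. Each library is taken here as 1 heart. The mice were C57BL/6N, and the heterozygous animals, written *Ctcf* +/R567W below, carried a CRISPR/Cas9-edited allele that replaces an arginine of the chromatin architecture protein CTCF with a tryptophan. The edit is not limited to a cell type, and RNA came from heart tissue without sorting of cells. The labels give neither sex, litter nor the part of the heart taken.

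Cardiac fibroblasts are mesenchymal cells that lie between the cardiomyocytes, make and turn over the collagen and proteoglycan matrix, and depend on signalling through the receptor PDGFRA. Mural cells wrap the vessels: pericytes sit on capillaries, and vascular smooth muscle cells encircle arteries and contract. Endothelial PDGF-B acting on PDGFRB keeps mural cells at the vessel wall, and the contractile genes of smooth muscle are driven by the serum response factor SRF with myocardin.

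All 10 genes had a lower fitted level in *Ctcf* +/R567W hearts than in wild-type hearts, and none passed the test. The median log2 fold change was -0.22 for the fibroblast genes and -0.19 for the mural genes, beside -0.0047 for all 10036 genes tested, of which 50.7% had a fitted difference below 0. The genotypes did not overlap, with the heterozygous hearts lower, for 5 of the 10 genes (*Dcn*, *Lum*, *Postn*, *Acta2* and *Myh11*), as was the case for 23.3% of all tested genes. An adjusted p under 0.05 with a fold change over 1.5 was reached by 0 of the 10 genes and by 0.0199% of all tested genes, in the limma fit with Benjamini-Hochberg adjustment. At an unadjusted p under 0.05, 1 of the 10 genes was lower (*Lum*), and 5.71% of all tested genes were. At that p, 0 of the 10 genes were higher, against 6.49% of all tested genes. A fitted difference beyond 1.5-fold lower was seen for 0 of the 10 genes and for 2.25% of all tested genes. In bulk tissue, fewer cells of a type and less RNA per cell cannot be told apart.

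Values are given below as scaled TPM, the deposited TPM (transcripts of a gene per length, as a share of the library) divided by a factor for each library, in the order wild-type replicate 1, wild-type replicate 2, heterozygous replicate 1 and heterozygous replicate 2. The factors were 1.09, 1.26, 0.818 and 0.903, and differences are log2 fold changes of scaled TPM plus 1, heterozygous minus wild-type, with their standard error (SE). The pseudocount of 1 makes the difference of a gene near 1 TPM look smaller than it is. Transcripts of the mitochondrial genome took between 61.1% and 68.6% of the deposited TPM of a library, and *Ctcf* itself stood at 6.12, 6.03, 7.51 and 5.76 scaled TPM, with a fold change of 0.10 on the log2 scale (SE 0.16, adjusted p = 0.814). A point mutation does not remove the transcript, so the *Ctcf* level does not check the genotype labels. With 2 hearts against 2, an exact permutation test of a single gene cannot go below p = 0.333.

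**Figure D1:**
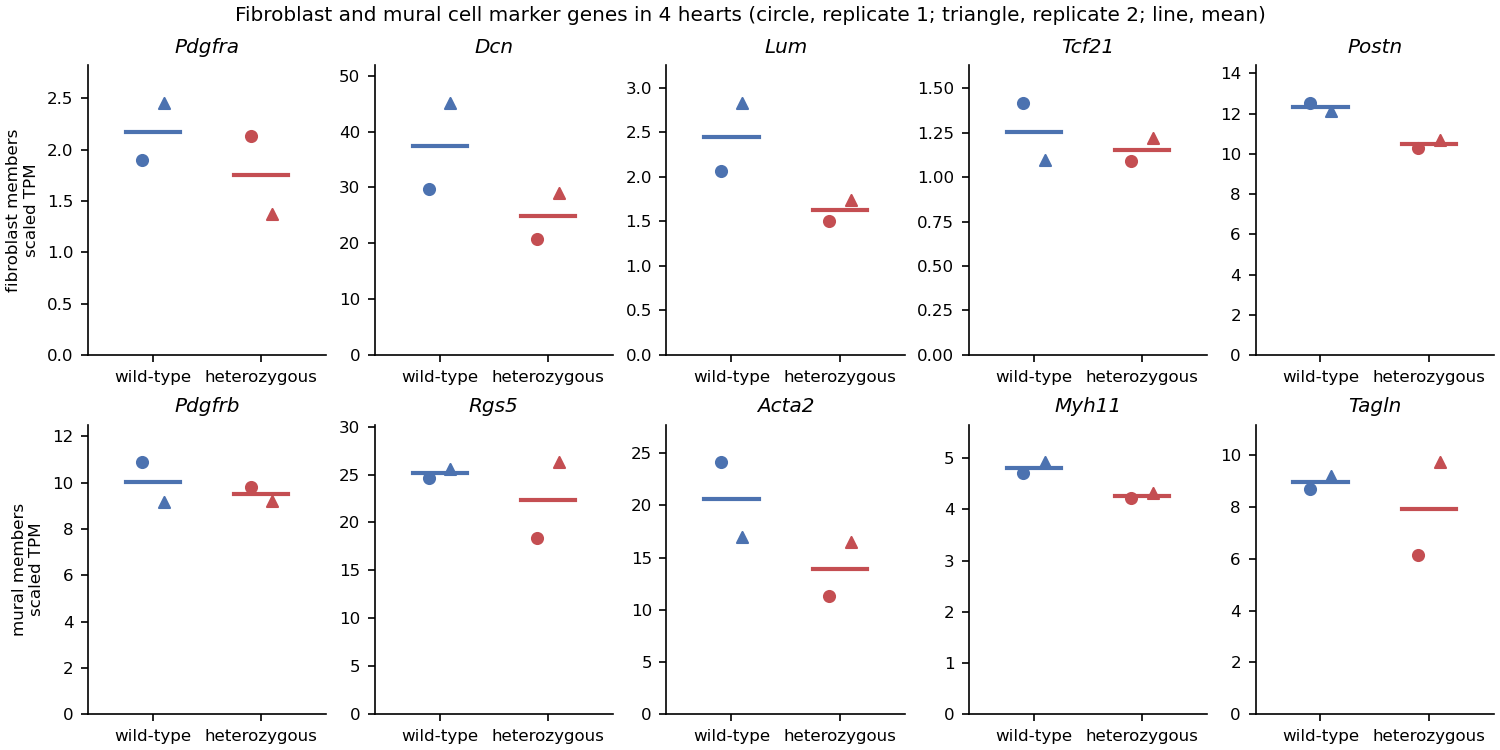
Scaled TPM (vertical axis, from 0) of the 10 genes in each heart by genotype; circles are replicate 1, triangles replicate 2, and lines the mean of 2 hearts. The genotypes do not overlap for *Dcn*, *Lum*, *Postn*, *Acta2* and *Myh11*, and for *Rgs5* and *Tagln* heterozygous replicate 2 is the highest of the 4 hearts.

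Among the fibroblast genes, the matrix proteoglycans had the largest differences over all 4 hearts. Without heterozygous replicate 1, *Pdgfra* (-0.42) lay below both *Dcn* (-0.32) and *Lum* (-0.33), and without wild-type replicate 2, *Postn* (-0.24) lay below *Lum* (-0.22). *Dcn* (chromosome 10, 97479609 to 97518143 on mm10) encodes decorin, a small proteoglycan that binds collagen fibrils, and its level was 29.7, 45.1, 20.7 and 29.0 scaled TPM. The higher heterozygous heart lay just under the lower wild-type heart. The mean was 37.4 ± 10.9 (SD, n = 2) in wild-type and 24.9 ± 5.91 (SD, n = 2) in heterozygous hearts, a log2 fold change of -0.56 (SE 0.26, 95% interval -1.18 to 0.06, adjusted p = 0.429).

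*Lum* (chromosome 10, 97565128 to 97572703) encodes lumican, a proteoglycan of the same small leucine-rich family that also regulates fibril spacing, and is the next annotated gene after *Dcn*, 46984 bases away on the same strand. Its level was 2.07, 2.83, 1.51 and 1.74 scaled TPM, with both wild-type hearts above both heterozygous hearts. The means were 2.45 ± 0.536 and 1.62 ± 0.165 (SD, n = 2 each). The log2 fold change was -0.39 (SE 0.16, 95% interval -0.77 to -0.006, adjusted p = 0.405). The ratio of *Dcn* to *Lum* was 14.4, 16.0, 13.8 and 16.7 in the 4 hearts, so both genes varied together from heart to heart and the ratio overlapped between genotypes.

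*Postn* (chromosome 3, 54361109 to 54391037) encodes periostin, a matricellular protein made by fibroblasts in the developing and injured heart, and its level was 12.5, 12.1, 10.3 and 10.7 scaled TPM. The hearts of each genotype lay close together and the genotypes did not overlap. The means were 12.3 ± 0.278 and 10.5 ± 0.264 (SD, n = 2 each), and the log2 fold change was -0.22 (SE 0.14, 95% interval -0.56 to 0.13, adjusted p = 0.548).

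The receptor and the transcription factor of the fibroblast group overlapped between genotypes. *Pdgfra* (chromosome 5, 75152292 to 75198215), the PDGF receptor that marks resident fibroblasts, stood at 1.89, 2.45, 2.13 and 1.37 scaled TPM. Heterozygous replicate 1 lay between the wild-type hearts and replicate 2 was the lowest, and the log2 fold change was -0.21 (SE 0.18, 95% interval -0.65 to 0.22, adjusted p = 0.643). *Tcf21* (chromosome 10, 22817281 to 22820174), a basic helix-loop-helix factor needed for fibroblasts to form from the epicardium, stood at 1.42, 1.10, 1.09 and 1.22 scaled TPM, with wild-type replicate 1 the highest and the other hearts close together. Its log2 fold change was -0.06 (SE 0.15, 95% interval -0.41 to 0.29, adjusted p = 0.873), and without wild-type replicate 1 it was 0.036.

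Among the mural genes, the smooth muscle actin gene had the largest difference over all 4 hearts. *Acta2* (chromosome 19, 34241090 to 34255590) encodes the alpha-actin of vascular smooth muscle, which activated fibroblasts also make, and its level was 24.1, 17.0, 11.3 and 16.5 scaled TPM. Wild-type replicate 1 was high, heterozygous replicate 1 was low, and the remaining hearts were nearly equal, so the genotypes were separated by a narrow gap. The means were 20.6 ± 5.04 and 13.9 ± 3.68 (SD, n = 2 each), and the log2 fold change was -0.54 (SE 0.24, 95% interval -1.12 to 0.04, adjusted p = 0.425).

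*Myh11* (chromosome 16, 14194535 to 14291372), the myosin heavy chain of smooth muscle and a contractile marker largely restricted to it, stood at 4.72, 4.92, 4.22 and 4.32 scaled TPM. The hearts of a genotype were close together and did not overlap with the other genotype, with means of 4.82 ± 0.145 and 4.27 ± 0.0689 (SD, n = 2 each). The log2 fold change was -0.14 (SE 0.13, 95% interval -0.46 to 0.17, adjusted p = 0.665).

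*Tagln* (chromosome 9, 45929619 to 45936058) encodes transgelin, an actin-binding protein of smooth muscle, and stood at 8.71, 9.22, 6.14 and 9.73 scaled TPM. Heterozygous replicate 1 was the lowest heart and heterozygous replicate 2 the highest, and the log2 fold change was -0.19 (SE 0.21, 95% interval -0.70 to 0.33, adjusted p = 0.730). The exons of *Tagln* overlap those of *Pcsk7*, at 5.61, 6.44, 6.0 and 5.36 TPM as deposited, and of the antisense transcript *Gm48529*, both on the opposite strand. Of the 50-base words of *Tagln* transcripts, 58.4% also occur in other genes, and strand use in the counting is not given in the sources used here, so the level of *Tagln* is uncertain.

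The pericyte genes overlapped between genotypes. *Rgs5* (chromosome 1, 169655501 to 169695813), a regulator of G protein signalling abundant in pericytes, stood at 24.7, 25.6, 18.4 and 26.3 scaled TPM. As with *Tagln*, heterozygous replicate 1 was low and replicate 2 was the highest heart, and the log2 fold change was -0.19 (SE 0.21, 95% interval -0.68 to 0.31, adjusted p = 0.720). *Pdgfrb* (chromosome 18, 61045150 to 61085061), the receptor for PDGF-B on mural cells, stood at 10.9, 9.15, 9.82 and 9.22 scaled TPM, with both heterozygous hearts between the wild-type hearts. Its log2 fold change was -0.06 (SE 0.16, 95% interval -0.44 to 0.31, adjusted p = 0.885).

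The direction of these smaller differences, and the size of the larger ones, rested on single hearts. Without heterozygous replicate 1, the log2 fold change was 0.065 for *Rgs5* and 0.11 for *Tagln*, and without wild-type replicate 1 it was 0.047 for *Pdgfrb*. For *Dcn* it was -0.86 without wild-type replicate 1, -0.27 without wild-type replicate 2, -0.32 without heterozygous replicate 1 and -0.80 without heterozygous replicate 2. For *Acta2* it was -0.30, -0.77, -0.28 and -0.79 in the same order, and for *Pdgfra* -0.34, -0.08, -0.42 and -0.015. *Lum* (-0.55 to -0.22), *Postn* (-0.24 to -0.19) and *Myh11* (-0.17 to -0.12) stayed below 0 whichever heart was left out. Heterozygous replicate 1 was the lowest of the 4 hearts for 8 of the 10 genes and the highest for none, beside 31.4% and 30.4% of all tested genes, and heterozygous replicate 2 lay above it for 8 of the 10, beside 51.1% of all tested genes. Without heterozygous replicate 2, the median of the mural genes was -0.44, and without heterozygous replicate 1 it was -0.10. For *Lum*, *Postn*, *Acta2* and *Myh11* the distance between the genotype means was larger than the distance between the hearts of either genotype, which was so, with the heterozygous mean lower, for 4 of the 10 genes and for 16.1% of all tested genes.

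**Figure D2:**
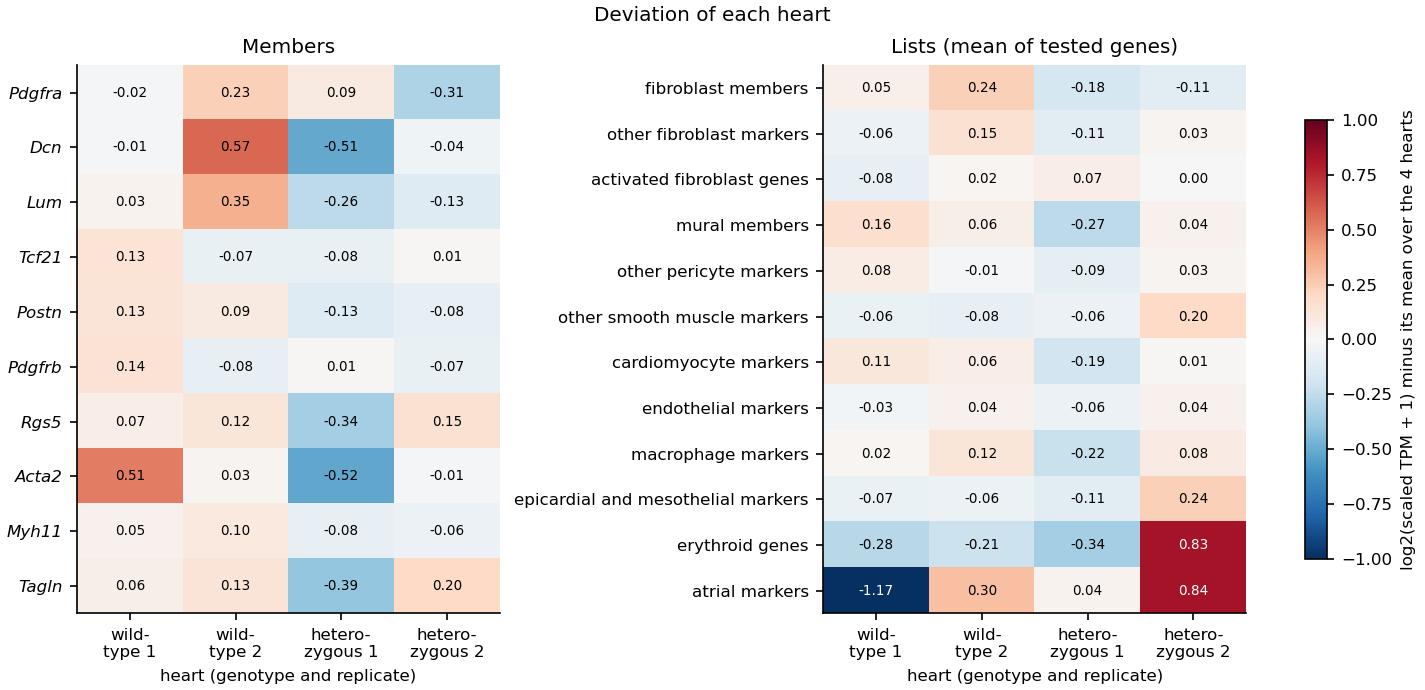
Deviation of each heart (columns) from the mean of the 4 hearts on the log2(scaled TPM + 1) scale, for the 10 genes (left) and for the mean of the tested genes of 12 marker lists (right), with the colour scale ending at 1 in either direction. Heterozygous replicate 1 is lowest for the mural genes (-0.27), and the atrial markers range from -1.17 in wild-type replicate 1 to 0.84 in heterozygous replicate 2.

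By mean scaled TPM, which is per transcript length, the order of levels was *Dcn* (31.1), *Rgs5* (23.7), *Acta2* (17.2), *Postn* (11.4), *Pdgfrb* (9.77), *Tagln* (8.45), *Myh11* (4.54), *Lum* (2.03), *Pdgfra* (1.96) and *Tcf21* (1.2). Of the neighbours in this order, only *Tagln* and *Myh11*, and *Myh11* and *Lum*, had ranges over the 4 hearts that did not overlap. The fibroblast sum was thus mostly *Dcn*, which made up 62.4%, 70.9%, 57.9% and 65.9% of it, and *Acta2* was 33.0%, 25.8%, 22.7% and 25% of the mural sum. Sums over the fibroblast genes were 47.6, 63.6, 35.7 and 44.0 scaled TPM, and sums over the mural genes were 73.1, 65.9, 49.8 and 66.1 scaled TPM, where heterozygous replicate 2 lay above wild-type replicate 2. Within the mural group, *Acta2* per *Rgs5* was 0.978, 0.665, 0.616 and 0.628, and *Acta2* per *Myh11* was 5.12, 3.46, 2.68 and 3.82. The first ratio was lower in both heterozygous hearts by a narrow gap, and the second overlapped.

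The size of the differences depended on the scale. On TPM as deposited, the median was -0.63 for the fibroblast genes and -0.58 for the mural genes, on a scale where the median of all tested genes was itself -0.35. The adjusted p of the 10 genes on that scale ran from 0.0891 to 0.218. When the hearts were scaled to the geometric mean of 15 cardiomyocyte markers, which weighs each marker alike, the median of all tested genes was 0.13. The median of the fibroblast genes was then -0.09 and that of the mural genes -0.02, and *Tcf21* (0.033), *Pdgfrb* (0.099) and *Myh11* (0.003) stood slightly above 0. *Dcn* (-0.39), *Acta2* (-0.37) and *Lum* (-0.27) stayed the lowest of the 10 on that scale.

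**Figure D3:**
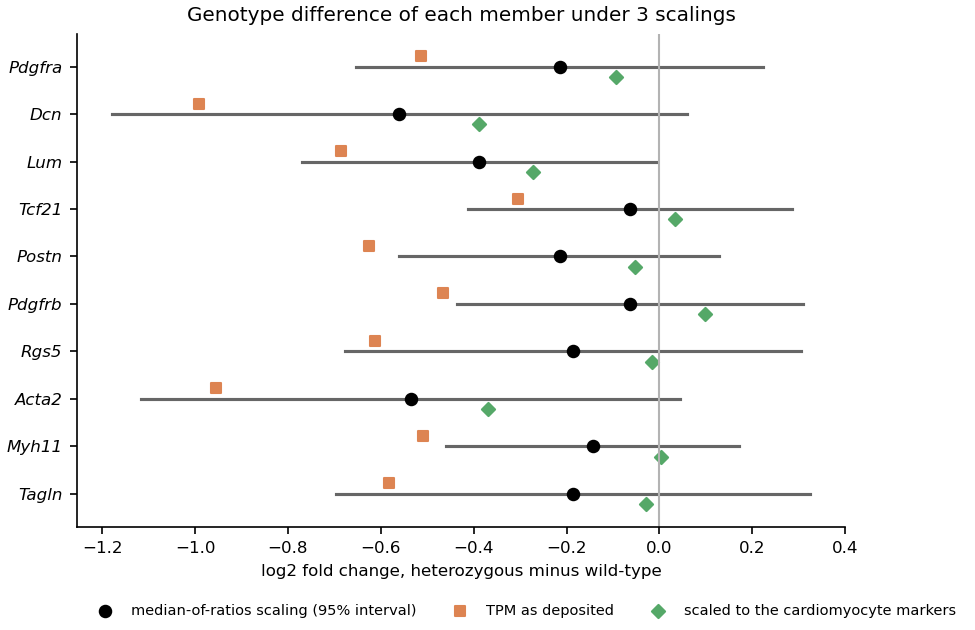
Log2 fold change (heterozygous minus wild-type, horizontal axis) of the 10 genes after median-of-ratios scaling (black circles, with the 95% interval), on TPM as deposited (orange squares) and after scaling to cardiomyocyte markers (green diamonds). Squares lie to the left of the circles and diamonds to the right for all 10 genes, and *Tcf21*, *Pdgfrb* and *Myh11* cross 0 with the cardiomyocyte scaling.

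Ratios within a heart do not depend on the factor of the library. Per 1000 TPM of the 15 cardiomyocyte markers, the hearts held 1.58, 2.23, 1.48 and 1.51 TPM of the fibroblast genes and 2.42, 2.31, 2.06 and 2.27 TPM of the mural genes. Both heterozygous hearts were lower than both wild-type hearts in each ratio, and the gaps to the nearest wild-type heart were small. These ratios divide by the sum of the markers, whereas the scaling above used their geometric mean. *Myh6*, a cardiac myosin, made up 31.3%, 32.1%, 37.8% and 36.2% of that sum, a larger share in both heterozygous hearts. The ratios without *Myh6* were not computed. Per 100 TPM of 12 endothelial markers, the values were 14.2, 18.7, 9.65 and 10.3 for the fibroblast genes and 21.8, 19.4, 13.5 and 15.5 for the mural genes, a wider separation. *Egfl7*, an endothelial secreted factor, made up 58.5%, 56.9%, 63.4% and 65.1% of the endothelial sum and was higher in both heterozygous hearts, with an adjusted p of 0.448. In a calculation added after the values were seen, without *Egfl7*, the fibroblast ratio was 34.1, 43.5, 26.4 and 29.6 and the mural ratio 52.4, 45.0, 36.8 and 44.4. The heterozygous to wild-type ratio of means moved from 0.608 to 0.722 for the fibroblast genes and from 0.704 to 0.834 for the mural genes. The ratio of the fibroblast to the mural sum was 0.651, 0.966, 0.717 and 0.667, and the genotypes overlapped.

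**Figure D4:**
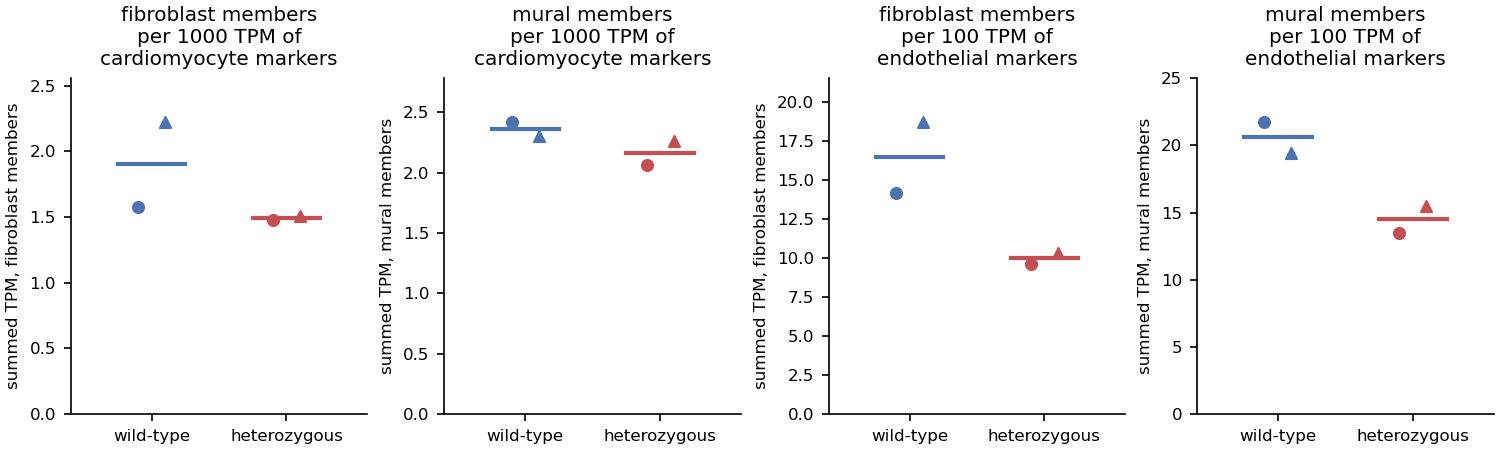
Summed TPM of the fibroblast or mural genes (vertical axes, from 0) per 1000 TPM of cardiomyocyte markers and per 100 TPM of endothelial markers in each heart; circles are replicate 1, triangles replicate 2, and lines the mean of 2 hearts. In all 4 panels both heterozygous hearts are under both wild-type hearts, by the least for the mural genes per cardiomyocyte markers (2.27 against 2.31).

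Other markers of the same cell types did not share the direction of the 10 genes throughout. Of 18 other fibroblast markers, 17 were tested, 0 were called in either direction, 12 were fitted below 0 and 5 above, and the median log2 fold change was -0.13. *Gsn*, an actin-severing protein abundant in fibroblasts, stood at 85.5, 112.4, 71.4 and 88.3 scaled TPM (log2 fold change -0.30). As for *Dcn*, it was highest in wild-type replicate 2 and lowest in heterozygous replicate 1, but for *Gsn* the genotypes overlapped. *Col3a1*, a fibrillar collagen, stood at 15.9, 20.6, 20.9 and 17.9 (0.09), *Pcolce*, an enhancer of procollagen processing, at 20.1, 19.8, 19.1 and 24.6 (0.12), and *Fbln2*, a basement membrane glycoprotein, at 12.7, 12.6, 15.1 and 13.9 (0.18), the last with both heterozygous hearts above both wild-type hearts. Of 12 genes of activated fibroblasts, 6 were tested, 3 on each side of 0, with a median of 0.0095. Among them *Fap*, a membrane protease, stood at 3.18, 3.37, 5.16 and 4.22 scaled TPM (0.41, adjusted p = 0.372), and *Fn1*, fibronectin, at 6.01, 6.37, 5.41 and 5.39 (-0.17), while *Meox1* and *Ccn2* had log2 fold changes of 0.21 and -0.07.

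All 13 other pericyte markers were tested, 0 were called, 8 were fitted below 0 and 5 above, and the median was -0.03. *Vtn*, vitronectin, stood at 18.2, 14.6, 12.8 and 21.6 scaled TPM, with heterozygous replicate 1 the lowest and replicate 2 the highest, as for *Rgs5*. *Colec11*, a collectin, stood at 8.80, 8.45, 4.84 and 6.98 (-0.50, adjusted p = 0.376), lower in both heterozygous hearts. *Mcam*, an adhesion molecule, stood at 6.89, 6.03, 7.38 and 7.78 (0.20), higher in both heterozygous hearts, and *Higd1b* at 12.1, 7.94, 7.18 and 11.7 (-0.09), overlapping. Of 12 other smooth muscle markers, 6 were tested, 0 were called, 2 were fitted below 0 and 4 above, and the median was 0.14, on the other side of 0 from the mural genes. *Myl9*, a regulatory light chain of smooth muscle myosin, stood at 18.3, 18.8, 15.8 and 30.6 scaled TPM, *Smtn*, smoothelin, at 19.0, 18.2, 16.8 and 20.6, and *Tpm2*, a tropomyosin, at 12.6, 11.7, 10.8 and 16.4. In these 3 heterozygous replicate 1 was the lowest heart and replicate 2 the highest, as for *Tagln*. *Rasl12*, a small GTPase of the Ras family, differed from them, at 4.07, 4.92, 6.43 and 6.03 (0.40, adjusted p = 0.375), with both heterozygous hearts above both wild-type hearts.

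**Figure D5:**
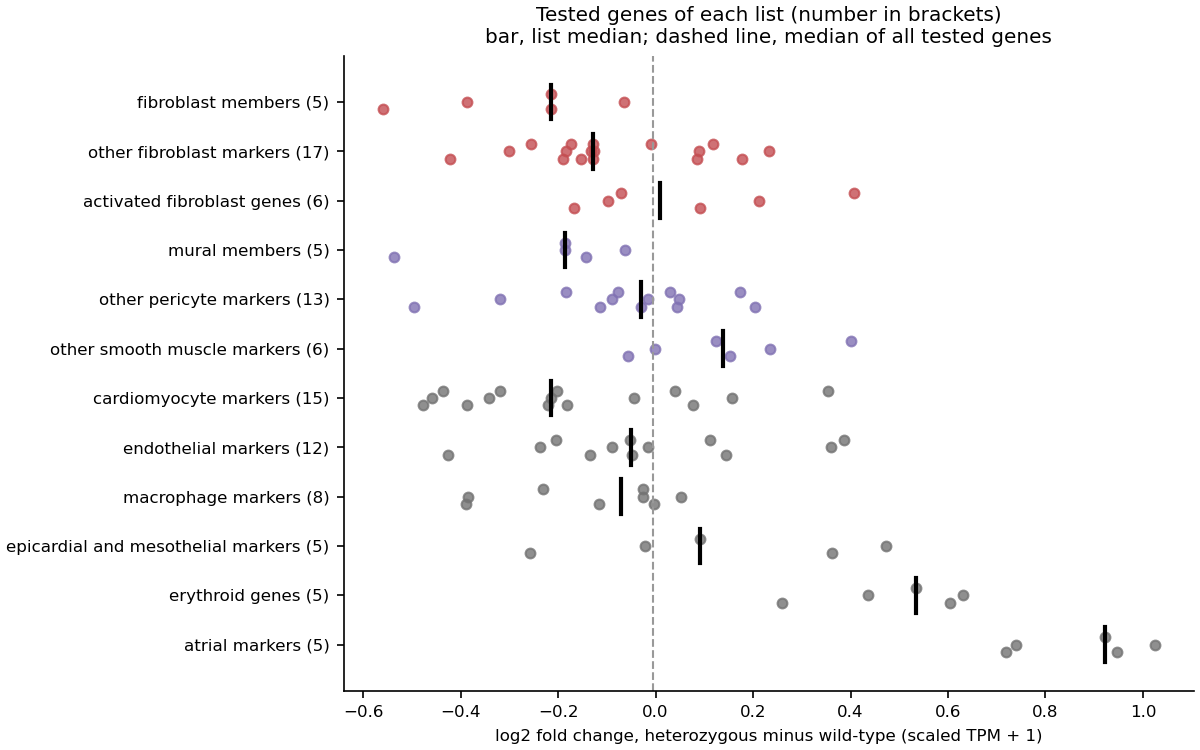
Log2 fold change (heterozygous minus wild-type, horizontal axis) of each tested gene of 12 marker lists, with the number tested in brackets; vertical bars are list medians and the dashed line is the median of all tested genes (-0.0047). The fibroblast and mural genes lie left of 0, the other smooth muscle markers have a median of 0.14, and the erythroid and atrial genes lie right of 0.

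Genes that act with the 10 were read by role, and 0 of them were called. Of 8 further small leucine-rich proteoglycans, 3 were tested: *Ogn* (osteoglycin) stood at 5.77, 6.12, 3.83 and 4.97 scaled TPM (-0.37, adjusted p = 0.412), *Bgn* (biglycan) at 8.39, 12.3, 6.97 and 10.4 (-0.23), and *Aspn* (asporin) at 3.72, 4.01, 4.13 and 4.27 (0.10). *Ogn* was thus separated in the direction of *Dcn* and *Lum*, and *Aspn* in the other. Of the 4 PDGF ligands, 3 were tested. *Pdgfb*, the ligand of *Pdgfrb*, stood at 10.6, 11.1, 13.1 and 13.7 scaled TPM (0.28), *Pdgfa*, a ligand of *Pdgfra*, at 5.0, 3.60, 5.50 and 5.39 (0.30), and *Pdgfd* at 2.7, 1.88, 1.85 and 1.84 (-0.20). The first 2 ligands were higher and *Pdgfd* lower in both heterozygous hearts, with adjusted p from 0.467 to 0.62 in limma. Of all tested genes, 23.7% were separated with the heterozygous hearts higher and 23.3% with them lower. Neither receptor was separated by genotype.

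Of the SRF and myocardin family, 3 of 4 genes were tested. *Srf* stood at 3.82, 3.85, 2.40 and 3.79 scaled TPM (-0.26) and, like *Acta2*, was lowest in heterozygous replicate 1. Its coactivators *Mrtfa* and *Mrtfb* had log2 fold changes of -0.11 and 0.08, and *Myocd*, at 1.05, 0.992, 0.930 and 0.399 scaled TPM, was under the filter of a mean of 1 TPM. Of 10 TGF-beta ligands, receptors and SMADs, 7 were tested, 2 were fitted below 0 and 5 above, with a median of 0.06. *Smad3*, a mediator of TGF-beta signals in fibroblasts, stood at 2.36, 2.48, 3.60 and 3.18 scaled TPM (0.36, adjusted p = 0.379), and *Tgfb1* at 3.31, 3.72, 3.29 and 4.82 (0.15), while the log2 fold change of *Smad4* was -0.11 and that of *Tgfbr1* 0.003.

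Of the 6 RefSeq promoter windows found for 5 of the 10 genes (250 bases before to 50 after the start site, GRCm38.p6), none held a strict CArG box, the element bound by SRF, which 1.63% of 32851 promoter windows hold. No window was found for *Dcn*, *Lum*, *Pdgfrb*, *Myh11* and *Tagln*, so these were not searched. With up to 1 C or G allowed in the core of the box on either strand, 9.98% of the windows hold one. Of the 5 genes searched, only *Acta2* did. Its matches begin 84 and 34 bases before the RefSeq start site. Both lie inside the gene span given above (34241090 to 34255590), which comes from GENCODE and starts further upstream. They are shown because *Acta2* had the largest difference of the mural genes over all 4 hearts, read along the gene from 5′ to 3′ on the minus strand, with the match in capitals:
chr19:34255438-34255467: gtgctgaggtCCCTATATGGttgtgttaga
chr19:34255388-34255417: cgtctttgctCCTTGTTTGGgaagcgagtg
A match of letters is a description of the sequence and not a measurement of binding.

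Paralogs of the 10 genes were checked because reads can be split among near-identical copies. Only 0.326% of the 50-base words of *Acta2* occur in other genes, so at that length *Acta2* can largely be told from the other actins. Of 10 paralogs, 9 were tested, 0 were called, 2 were fitted below 0 and 7 above. *Actc1*, cardiac muscle actin, stood at 1068, 1010, 646.9 and 881.3 scaled TPM (-0.46, adjusted p = 0.448), and *Actg1*, a cytoplasmic actin, at 130.1, 174.8, 354.0 and 227.7 (0.91, adjusted p = 0.341), while *Acta1* and *Actb* had log2 fold changes of 0.20 and 0.17. *Acta2* made up 1.78%, 1.29%, 0.966% and 1.32% of the summed actin TPM, and the genotypes overlapped.

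Genes with other roles came close to the mean profile of each group over the hearts, a profile that not every gene of the group followed. Over the 4 hearts, and among 2524 genes outside the lists that averaged 10 TPM or more, the profile closest to the mean of the fibroblast genes was that of *Cct5*, a chaperonin subunit, at a root mean square distance of 0.0135 on the log2 scale, followed by *Pcbp1* and *Pxmp2*. Closest to the mural genes were the ribosomal protein genes *Rpl24* (0.0217) and *Rpl11* (0.0257), and *U2af1l4*. With 4 hearts and 2524 genes to choose from, a close profile was likely to be found in any case. Such likeness is only a description of these libraries.

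Markers of other cell types differed between the hearts too. The heart label was borne out by its markers, with *Myh6*, the adult cardiac myosin, at 9437, 9176, 9133 and 10550 scaled TPM. Of the 15 cardiomyocyte markers, 0 were called, 11 were fitted below 0 and 4 above, the genotypes were separated with the heterozygous hearts lower for 6 of the 15, beside 23.3% of all tested genes, and the median log2 fold change was -0.21, close to the medians of the fibroblast and mural genes. The 12 endothelial markers had a median of -0.05 (8 below 0 and 4 above), and 8 tested macrophage markers a median of -0.07 (7 below 0 and 1 above), with summed levels of 48.0, 52.5, 36.3 and 51.9 scaled TPM that were lowest in heterozygous replicate 1, as for the mural genes. Summed levels of 5 atrial markers were 806.4, 2355, 1919 and 3284 scaled TPM, with a median log2 fold change of 0.92 and 1 marker, *Bmp10*, listed at 0 in wild-type replicate 1. Summed levels of 5 erythroid genes were 929.8, 987.0, 965.4 and 2120 scaled TPM, with a median of 0.53. Wild-type replicate 1 thus stood apart by its low atrial transcripts and heterozygous replicate 2 by its high globin transcripts, and their part in the differences of the fibroblast and mural genes was not tested.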

How the data were processed

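RNA was captured with poly(A) beads from heart tissue, and 4 libraries were made, each taken here as 1 heart. Per the labels and the methods, the authors trimmed reads with Trim Galore, aligned them to mm10 with STAR and quantified genes with RSEM. The authors deposited TPM per gene, rounded to 2 decimals. TPM keep no depth, so depth and counting error are unknown. Read counts were not used here. Replicates were taken as separate mice, as their titles number them, and grouped by the genotype label.

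The deposited values of a library were divided by its median-of-ratios factor, and log2 was taken after adding 1. The 10036 genes averaging 1 TPM or more entered a limma model (version 3.58.1, R 4.3.3) with genotype as the only term, using lmFit and then eBayes with a mean trend. Tests were two-sided, and p values were adjusted by Benjamini-Hochberg over all of these genes. Unadjusted p values of single genes are from the same limma fit. Tables and figures used Python (3.11.15), pandas (2.3.3) and matplotlib (3.10.9). The fit was tested on simulated data. Positions come from GENCODE gene models on mm10, which cover 55141 of the deposited identifiers. Sequences are from RefSeq.

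The 10 genes, the marker lists and the tests were chosen with earlier results of these data known. The text names all 10 genes, *Ctcf*, genes among the 4 of each other list with the highest mean level, any called gene of a list, and for each group the 3 genes with the closest profile. *Myocd* and *Bmp10* were named after their values were seen. Alternatives covered the pseudocount, the filter, 4 other scalings (TPM as deposited, mitochondrial genes removed, quantile normalization, cardiomyocyte markers), the options of eBayes, a replicate block and leaving out each library.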

Additional observations from a re-analysis of the deposited data

How the results depend on the processing

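Over 146 values of the 10 genes under the alternatives, 139 were below 0, and 0 had an adjusted p under 0.05 in limma (smallest 0.072). The options of eBayes, the replicate block and the changes of filter cannot alter a fold change, so their values repeat those of the main fit. All values come from the same 4 libraries, so the count below 0 does not measure robustness. The values that turned above 0 were *Tcf21* (0.033), *Pdgfrb* (0.099) and *Myh11* (0.003) with the cardiomyocyte scaling, *Tcf21* (0.036) and *Pdgfrb* (0.047) without wild-type replicate 1, and *Rgs5* (0.065) and *Tagln* (0.11) without heterozygous replicate 1. The lowest values with 1 library left out were -0.16 for *Tcf21*, -0.18 for *Pdgfrb*, -0.44 for *Rgs5* and -0.48 for *Tagln*. The median of the fibroblast genes moved from -0.22 to -0.63 on TPM as deposited and to -0.56 with mitochondrial genes removed, and ran from -0.34 to -0.22 when 1 library was left out. The median of the mural genes moved from -0.19 to -0.58, to -0.52, and to -0.016 with the cardiomyocyte scaling, and ran from -0.44 to -0.10 when 1 library was left out. These scalings also moved the median of all genes, to -0.35, -0.31 and 0.13 in that order. Over all genes, 2 were called lower and 0 higher. The number lower was 4 with a pseudocount of 0.1, 0 without a filter, 11 on TPM as deposited, 12 with mitochondrial genes removed and 4 with the cardiomyocyte scaling, and the number higher was 2, 2 and 4 for the last 3 and 2 with the robust option of eBayes. When 1 library was left out, 4 to 15 were called lower and 1 to 11 higher, with the lone heart of a genotype assumed to vary like the others. The cause of these moves was not tested.

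Adding a replicate block to the model gave 7 genes called lower and 3 higher, none of them among the 10 genes. Over the tested genes, the deviations of wild-type replicate 1 and heterozygous replicate 1 from their genotype means had a correlation of 0.101. With 2 hearts per genotype, the deviations of replicate 2 mirror these and add no second value. The labels do not say whether a number marks a shared litter or batch, so that is unknown. A mean TPM of at least 5 leaves 6 of the 10 genes tested. With 2 hearts per genotype and no depth, the size of a difference often rested on 1 heart.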

Other observations

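Lists of rarer cell types stood near or under the filter of a mean of 1 TPM. None of 5 lymphocyte, 6 adipocyte, or 5 valve and tendon cell markers reached it, and their summed levels, in the order wild-type replicates 1 and 2 and heterozygous replicates 1 and 2, were 0.846, 0.857, 1.03 and 1.37 scaled TPM for lymphocytes, 2.91, 1.87, 0.465 and 2.30 for adipocytes, and 1.70, 1.91, 1.03 and 1.79 for valve and tendon cells. Of 6 epicardial and mesothelial markers 5 were tested and 0 were called, with summed levels of 11.1, 11.9, 11 and 15.1 scaled TPM and the highest value in heterozygous replicate 2. Among them *Upk1b*, a uroplakin, stood at 1.84, 2.21, 2.63 and 3.83 (log2 fold change 0.47, adjusted p = 0.379 in limma), and *Wt1*, a transcription factor of the epicardium, at 2.66, 2.29, 2.78 and 2.61 (0.09).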
